A study of Mus musculus with 8 samples.

Results

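The set described here comprises 43 genes that build, transfer and remodel asparagine-linked glycans (N-glycans), among them Mgat2, an N-acetylglucosaminyltransferase of the Golgi. Its members are the rows of the deposited expression table whose gene name equals a listed symbol, 43 of 21358 genes. The genes were listed by function: 22 act in the endoplasmic reticulum (ER), 14 in the Golgi, and 7 make the sugar donors. Liver RNA was sequenced from mice kept for 22 weeks on a regimen in which they fasted every other day. The labels name 2 groups of 4 libraries by the state in which glucose was taken, feeding (FG, libraries 93, 94, 95 and 96) or starvation (SG, libraries 101, 103, 104 and 105), and the fasting regimen is common to both groups. Sex, age, strain, genotype and the hour of tissue collection are not stated in the labels. The series counts 4 per group, but nothing in the labels says that the libraries are from different animals, so the p-values refer to the spread between these libraries, which may be technical.

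N-glycans are assembled in the ER as an oligosaccharide on the lipid carrier dolichol and then moved as a block to asparagines of nascent proteins by the oligosaccharyltransferase. Glucosidases and mannosidases trim the block, and Golgi transferases then add N-acetylglucosamine branches, galactose and sialic acid, which turns high-mannose glycans into complex ones. Hepatocytes secrete most plasma glycoproteins, so the pathway is heavily used in liver.

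Expression was given as FPKM, fragments per kilobase of gene, scaled to the fragments counted in the library. Depth was 38253764 to 41977438 fragments for FG libraries, and for SG libraries 36545128 to 39214619. The hepatocyte markers, Alb, Apoa1, Ttr, Serpina1c, Cps1 and Hnf4a, summed to between 48650 and 66360 FPKM in every library. Most of each sum was Alb, at 35960 to 49860 FPKM. SG 101 held the highest SG value in 20 of the 40 tested genes of the set and the lowest in 10. How often it did so among all tested genes was not counted. Results that rest on SG 101 are given with and without it. A gene was tested when it reached 1 FPKM in at least 4 of the 8 libraries, and a change was called at a Benjamini-Hochberg adjusted p under 0.05 in limma's fit of log2(FPKM + 1) over all 9867 tested genes. Fold changes are SG minus FG on that log2 scale, which compresses the changes of genes with low FPKM. Of all tested genes 19.4% were called, 15.6% lower and 3.73% higher in SG, and their median log2 fold change was -0.135. Median-ratio scaling between libraries brought that median to 0.006, and 5.06% of genes were then called lower and 5.52% higher. Calls that were lost or gained with median-ratio scaling are therefore named beside the results.

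Of the 43 genes, 40 could be tested. In SG 11 fell (27.5%, beside 15.6% of all tested genes) and 0 rose, against 3.73% of all genes. The genes were listed with earlier results of these data known, so these shares do not come from a blind choice. At an unadjusted p under 0.05, limma gave 16 lower and 1 higher. The share of all tested genes at that level was not taken, so these counts have no background. The genes that fell were Dpagt1, Alg14, Alg2 and Mogs in the ER, Man2a2, Mgat2, Mgat4b and St6gal1 in the Golgi, and Gfpt1, Gmppa and Gmppb in donor supply. The median log2 fold change of the 40 genes was -0.218, or -0.08 relative to the median of all genes, and 34 of 40 (85.0%) lay below 0 beside 69.9% of all tested genes. After median-ratio scaling 8 of the 40 genes were lower, without Alg14, Mogs and Gfpt1, beside 5.06% of all tested genes. In that fit 1 gene, Man2a1, was higher, beside 5.52% of all tested genes. Apart from Alg14, the genes that fell (10 of 11) kept their call in all 8 fits that left out 1 library; Alg14 kept it in 1 of them, without FG 96. The plot of fold changes by role shows the 2 largest falls in the Golgi.

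**Figure D1:**
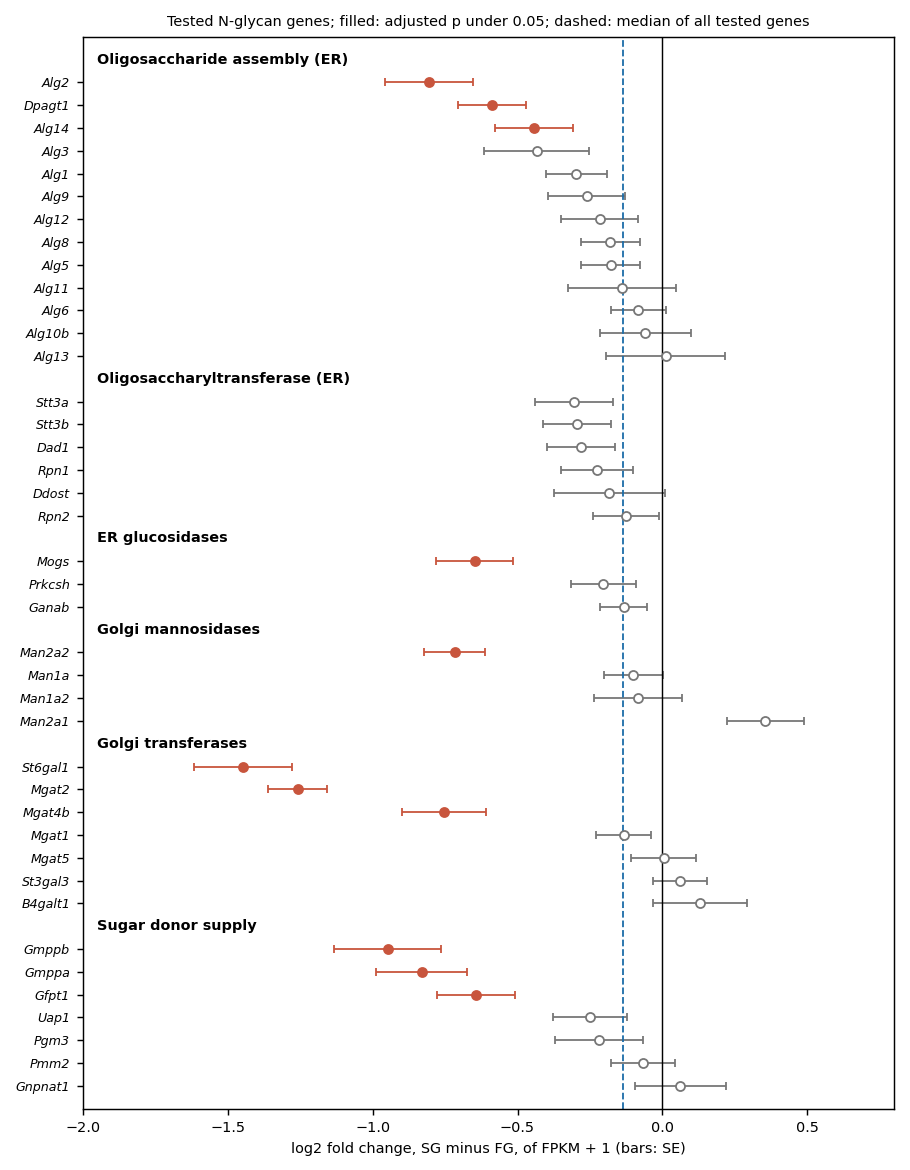
Log2 fold change (SG minus FG, of FPKM + 1) with its standard error for the 40 tested genes, grouped by role on the vertical axis; filled points have an adjusted p under 0.05, the solid line is 0 and the dashed line is the median of all tested genes at -0.135. St6gal1 at -1.45 and Mgat2 at -1.26 lie farthest to the left, and Man2a1 at 0.355 farthest to the right.

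In the Golgi, 4 of 11 tested genes fell (36.4%, beside 15.6% of all tested genes), and 4 were also called lower under each of the 3 scalings between libraries (beside 5.06% of all genes with median-ratio scaling). Their members are spread over trimming, branching and capping, and their neighbours in the same steps did not all move with them. The median of the 11 genes was -0.10, beside -0.135 over all genes, and their range, -1.45 to 0.355, was wider than that of the ER genes (-0.80 to 0.01).

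Mgat2 adds the N-acetylglucosamine that starts the second antenna, the step that commits a hybrid glycan to the complex type. Its level was 24.1, 21.3, 24.3 and 28.1 FPKM in FG 93, 94, 95 and 96, and 9.77, 10.6, 8.81 and 9.30 FPKM in SG 101, 103, 104 and 105. Every SG library lay below every FG library, and the lowest FG library still exceeded the highest SG library. The mean fell from 24.45 ± 2.80 to 9.61 ± 0.751 FPKM (SD, n = 4 each), which is 39.3% of the FG mean. The log2 fold change was -1.26 (SE 0.102, limma adjusted p = 0.000433), and -1.09 after median-ratio scaling (adjusted p = 0.00109). These values rest on 2174 to 2906 fragments per FG library and 866 to 1011 per SG library. Mgat2 has 1 exon block, at chr12:69184158-69186773 of GRCm38 (gene positions here and below are RefSeq's). No other member had a smaller adjusted p.

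St6gal1, which caps galactose with sialic acid on glycoproteins secreted by the liver, had the largest fall of the set; its gene spans chr16:23224729-23360350. Its level was 34.5, 24.0, 31.5 and 23.7 FPKM in FG 93, 94, 95 and 96, and 11.5, 10.6, 9.90 and 7.13 FPKM in SG 101, 103, 104 and 105. The FG libraries split into a higher pair (93 and 95) and a lower pair (94 and 96), both above all SG libraries. On average St6gal1 fell from 28.4 ± 5.42 to 9.79 ± 1.90 FPKM (SD, n = 4 each), with a log2 fold change of -1.45 (SE 0.168, limma adjusted p = 0.00167). It was -1.28 after median-ratio scaling (adjusted p = 0.00209).

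The promoters of these genes are shown because they had the largest falls of the set. Each sequence is the 250 bases before a RefSeq start on the plus strand of GRCm38.p6, 5′ to 3′. Every CCAAT (the box bound by NF-Y) or its reverse complement ATTGG is in capitals. Mgat2 has 1 listed start and St6gal1 has 3, and FPKM per gene do not tell which of the 3 was used.
Mgat2, chr12:69183908-69184157, plus strand: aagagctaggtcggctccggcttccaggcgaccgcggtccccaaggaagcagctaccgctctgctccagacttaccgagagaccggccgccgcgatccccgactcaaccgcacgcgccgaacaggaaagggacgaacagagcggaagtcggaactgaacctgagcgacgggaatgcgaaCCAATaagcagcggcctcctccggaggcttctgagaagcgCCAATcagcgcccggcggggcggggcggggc
St6gal1, start 1, chr16:23224490-23224739, plus strand: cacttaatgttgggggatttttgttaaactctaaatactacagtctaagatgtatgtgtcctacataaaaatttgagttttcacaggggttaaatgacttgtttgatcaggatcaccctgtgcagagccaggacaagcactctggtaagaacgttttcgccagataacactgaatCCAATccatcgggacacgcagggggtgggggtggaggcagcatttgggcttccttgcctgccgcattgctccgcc
St6gal1, start 2, chr16:23225771-23226020, plus strand: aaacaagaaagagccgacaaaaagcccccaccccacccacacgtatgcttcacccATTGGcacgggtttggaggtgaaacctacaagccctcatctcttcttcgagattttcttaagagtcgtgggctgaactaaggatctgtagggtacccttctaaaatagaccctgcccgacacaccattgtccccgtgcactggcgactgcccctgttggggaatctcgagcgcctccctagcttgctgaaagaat
St6gal1, start 3, chr16:23290220-23290469, plus strand: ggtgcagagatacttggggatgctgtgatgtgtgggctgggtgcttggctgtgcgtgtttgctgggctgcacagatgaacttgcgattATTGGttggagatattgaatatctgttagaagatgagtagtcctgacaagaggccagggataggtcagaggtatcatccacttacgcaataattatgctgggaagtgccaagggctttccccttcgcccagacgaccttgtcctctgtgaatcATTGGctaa
The Mgat2 window holds CCAAT at bases -71 to -67 and -31 to -27 from the start, and beside the start a pair of overlapping GC boxes (GGGGCGGGG) from -15 to -2. The windows of St6gal1 hold 1, 1 and 2 CCAAT matches. A match is a run of letters and not a shown binding site.

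Mgat4b (chr11:50225335-50235103) adds a further branch to the first antenna arm. Its level was 22.9, 16.4, 24.2 and 17.0 FPKM in FG 93, 94, 95 and 96, and 12.7, 12.4, 10.6 and 9.90 FPKM in SG 101, 103, 104 and 105. As for St6gal1, FG 93 and FG 95 were the higher FG libraries, and the groups did not overlap. On average it fell from 20.1 ± 4.01 to 11.4 ± 1.36 FPKM (SD, n = 4 each), a log2 fold change of -0.75 (SE 0.146, limma adjusted p = 0.0111). Its paralog Mgat4a was below the filter, at 0.169 ± 0.0541 FPKM in FG and 0.107 ± 0.0190 in SG (SD, n = 4 each), so Mgat4b carried nearly all FPKM of that step in both groups.

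Man2a2 (chr7:80349095-80371483) and Man2a1 (chr17:64600688-64755110) encode Golgi alpha-mannosidases that remove mannose after the first branch is set and so open the site for Mgat2. Man2a2 was at 13.0, 10.3, 11.4 and 10.7 FPKM in FG 93, 94, 95 and 96, and at 6.32, 7.42, 6.58 and 5.78 FPKM in SG 101, 103, 104 and 105. The groups did not overlap, and the mean fell from 11.4 ± 1.21 to 6.52 ± 0.685 FPKM (SD, n = 4 each). The log2 fold change of Man2a2 was -0.72 (SE 0.105, limma adjusted p = 0.004).

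Man2a1 was the more abundant of the pair in every library. It was at 38.3, 46.7, 36.1 and 49.3 FPKM in FG 93, 94, 95 and 96, and at 45.9, 51.8, 59.1 and 61.9 FPKM in SG 101, 103, 104 and 105. The groups overlapped through SG 101, which lay below FG 94 and FG 96. The means were 42.6 ± 6.37 and 54.7 ± 7.23 FPKM (SD, n = 4 each), with a log2 fold change of 0.355 (SE 0.132) and a limma adjusted p of 0.0875, which missed the threshold. The adjusted p was 0.0474 after median-ratio scaling, where the fold change was 0.53, and 0.0424 without SG 101.

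The difference Man2a1 minus Man2a2 on the log2 scale was 1.48 to 2.10 in the FG libraries and 2.65 to 3.21 in the SG libraries, without overlap. It was 1.07 larger in SG (SE 0.21), with an exact two-sided permutation p of 0.0286, the smallest that 70 assignments of 4 and 4 libraries can give. Adjusted over the 5 paralog pairs tested, that p was 0.143. With so few libraries this is the lowest adjusted p that a single pair among 5 can reach. The adjusted test therefore could not call this pair alone and does not decide whether the 2 genes differ. The other 4 pairs all overlapped between groups: their differences of difference were -0.01 for Stt3a and Stt3b (SE 0.192), -0.02 for Man1a and Man1a2 (SE 0.0839), 0.12 for Gmppa and Gmppb (SE 0.16) and 0.10 for Alg6 and Alg8 (SE 0.109).

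The other tested Golgi genes did not pass the threshold. Man1a and Man1a2, which trim mannose before the first branch, had log2 fold changes of -0.10 and -0.08, and both were above 0 after median-ratio scaling. Mgat1, which adds the first branch and whose product Man2a1, Man2a2 and Mgat2 need, was at 8.45 ± 0.843 FPKM in FG and 7.60 ± 0.504 in SG (SD, n = 4 each), with a fold change of -0.13 on the deposited scale and 0.02 after median-ratio scaling. Mgat5, which adds another branch, was at 1.27 FPKM in both groups. B4galt1, the galactosyltransferase that makes the acceptor of St6gal1, had a fold change of 0.13 (SE 0.162, limma adjusted p = 0.606). St3gal3, a sialyltransferase that uses another linkage, was at 28.1 ± 1.34 FPKM in FG and 29.4 ± 3.02 in SG (SD, n = 4 each). The level of St6gal1 was thus close to that of St3gal3 in FG and lower than it in each SG library.

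Below the filter besides Mgat4a were Mgat3, which adds the bisecting N-acetylglucosamine, at 0.0342 FPKM in FG and 0.0309 in SG, and Fut8, which adds core fucose. Fut8 was at 0.975 ± 0.164 FPKM in FG and 0.677 ± 0.399 in SG (SD, n = 4 each). Its SG values ran from 0.283 in SG 101 to 1.22 in SG 105 and overlapped the FG values.

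**Figure D2:**
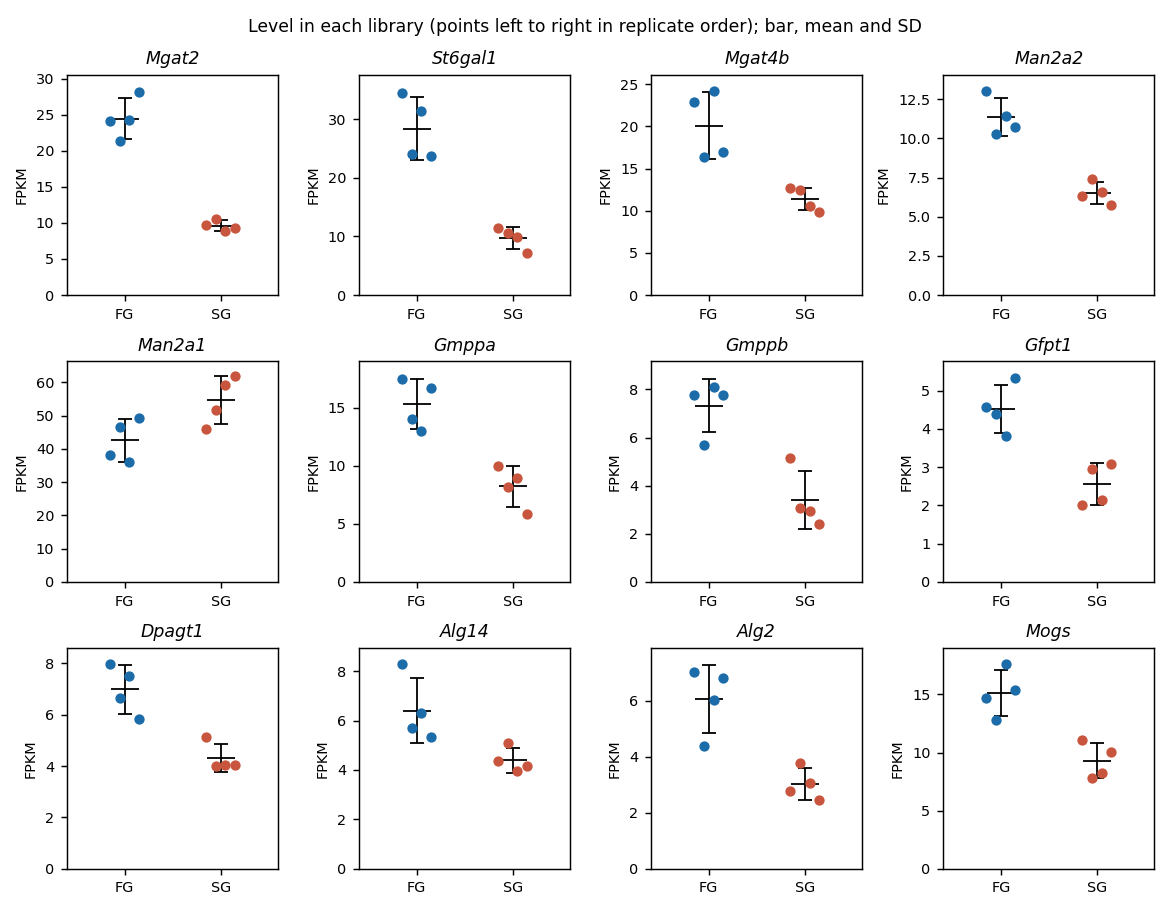
FPKM of the 11 genes that fell and of Man2a1 in each library, with FG and SG on the horizontal axis, points in replicate order, the long bar at the mean and the whiskers at 1 SD (n = 4 each); each vertical axis starts at 0. In all 11 genes that fell every SG point lies below every FG point, whereas the Man2a1 points overlap.

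Among the 7 genes of sugar donor supply 3 fell (42.9%, beside 15.6% of all tested genes), and the median log2 fold change was -0.25, beside -0.135 over all genes. After median-ratio scaling 2 of 7 were lower, Gmppa and Gmppb, beside 5.06% of all genes, and the median was -0.09. They belong to the 2 donors that the earliest steps use: UDP-N-acetylglucosamine, made from fructose phosphate by Gfpt1, Gnpnat1, Pgm3 and Uap1, and GDP-mannose, made by Pmm2 and the pyrophosphorylase of Gmppa and Gmppb.

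Gmppb (chr9:108049239-108051923) is the catalytic subunit of GDP-mannose pyrophosphorylase. It was at 7.75, 5.69, 8.08 and 7.76 FPKM in FG 93, 94, 95 and 96, and at 5.14, 3.09, 2.95 and 2.39 FPKM in SG 101, 103, 104 and 105. The groups did not overlap, although FG 94 stood below the other FG libraries and SG 101 above the other SG libraries. The mean fell from 7.32 ± 1.10 to 3.39 ± 1.21 FPKM (SD, n = 4 each), with a log2 fold change of -0.95 (SE 0.184, limma adjusted p = 0.0115). Of its exon bases in GENCODE vM21 33.6% are shared with Rnf123 on the opposite strand. Fragments of shared bases cannot be told apart without strand. The length recovered from the FPKM was 1825 bases, beside 2785 in GENCODE, so the shared part of the counted exons is not known.

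Gmppa (chr1:75435911-75443179), the regulatory partner, was at 17.5, 14, 13.0 and 16.7 FPKM in FG 93, 94, 95 and 96, and at 9.99, 8.14, 8.99 and 5.87 FPKM in SG 101, 103, 104 and 105. All SG libraries lay below all FG libraries, with SG 105 the lowest. Mean Gmppa fell from 15.3 ± 2.16 to 8.25 ± 1.76 FPKM (SD, n = 4 each), a log2 fold change of -0.83 (SE 0.157, limma adjusted p = 0.0104). Both subunits thus fell, and the change of their log2 difference was smaller than its SE. Pmm2, which supplies mannose 1-phosphate upstream of them, was at 22.9 ± 0.910 FPKM in FG and 22.0 ± 3.24 in SG (SD, n = 4 each) and was not called.

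Gfpt1 (chr6:87042846-87092207) commits fructose phosphate to hexosamine synthesis and is the rate-limiting enzyme of that route. It was at 4.57, 4.39, 3.81 and 5.32 FPKM in FG 93, 94, 95 and 96, and at 2.01, 2.95, 2.15 and 3.09 FPKM in SG 101, 103, 104 and 105. The groups did not overlap, and the mean fell from 4.52 ± 0.624 to 2.55 ± 0.552 FPKM (SD, n = 4 each). The log2 fold change was -0.64 (SE 0.135, limma adjusted p = 0.0149), and the adjusted p was 0.0503 after median-ratio scaling. The later enzymes of the route, Uap1 (-0.25), Pgm3 (-0.22) and Gnpnat1 (0.06), did not pass the threshold. In GENCODE vM21 Gnpnat1 shares 81.9% of its exon bases with Styx and Pgm3 28.3% with Dop1a, both on the opposite strand. The lengths recovered from the FPKM differ from those of GENCODE, and the values of these 2 genes are uncertain.

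The promoter of Gfpt1 is printed because, of the 6 genes that fell and had a promoter window, it was the 1 with a match to the core element of XBP1, a factor of the unfolded protein response. Such a match was about as frequent in the set (5.88% of genes with a window) as among tested genes (4.49%). The element is GACGTGG, or its reverse complement CCACGTC, in capitals here at bases -123 to -117 from the start. The CCAAT at -49 to -45 is also in capitals (RefSeq, GRCm38.p6, 5′ to 3′).
Gfpt1, chr6:87042596-87042845, plus strand: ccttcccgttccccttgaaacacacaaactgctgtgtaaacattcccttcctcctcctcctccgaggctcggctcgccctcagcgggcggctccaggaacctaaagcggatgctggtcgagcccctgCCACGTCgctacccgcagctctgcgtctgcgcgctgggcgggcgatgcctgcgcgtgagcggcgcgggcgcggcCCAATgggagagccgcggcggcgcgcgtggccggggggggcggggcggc

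Promoter windows of 300 bases, from 250 before to 50 after each RefSeq start, were found for 34 of the 43 genes, and both strands were searched. CCAAT was present for 23 of the 34 genes (67.6%), beside 42.7% of the 8001 tested genes with a window and 41.1% of all 27025 genes. Of the 11 genes that fell 6 had a window, and 5 of these held CCAAT: Mgat2, St6gal1, Gfpt1, Gmppa and Alg14. The GC box GGGGCGGGG was present for 13 of 34 genes (38.2%, beside 25.0% of tested genes). The XBP1 core was present for Gfpt1 and Pgm3, 2 of 34 (5.88%, beside 4.49%). The ER stress element ERSE, a CCAAT followed 9 bases on by CCACG and so counted among the CCAAT matches too, was present for Alg12 alone (2.94%, beside 0.2%). ERSE-II (ATTGG, 1 further base, CCACG) matched 0 of 34 genes, beside 0.112% of tested genes. The ATF core TGACGTCA matched Alg13, beside 3.52%, the E-box CACGTG matched Alg1 and Prkcsh, beside 12.2%, and the sterol-element-like TCACNCCAC matched 0, beside 1.54%. These shares count letters in a window and were not tested.

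In the ER 4 of 22 genes fell (18.2%, close to the 15.6% of all genes), and the median was -0.222, or -0.09 relative to all genes. Of these, 1 is a glucosidase, and 3 belong to the 13 genes that assemble the lipid-linked oligosaccharide. These 3 act on the cytosolic face of the ER. After median-ratio scaling Dpagt1 and Alg2 were still called.

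Dpagt1 (chr9:44325857-44333895) opens the pathway by placing N-acetylglucosamine phosphate on dolichol phosphate. It was at 7.97, 6.66, 7.49 and 5.82 FPKM in FG 93, 94, 95 and 96, and at 5.11, 4.02, 4.06 and 4.04 FPKM in SG 101, 103, 104 and 105. The groups did not overlap, and SG 101 stood above the other SG libraries. The mean fell from 6.99 ± 0.946 to 4.31 ± 0.539 FPKM (SD, n = 4 each), with a log2 fold change of -0.59 (SE 0.116, limma adjusted p = 0.0122).

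Alg14 (chr3:121291712-121363096) anchors the enzyme that adds the next N-acetylglucosamine, with Alg13 as its catalytic partner. It was at 8.28, 5.70, 6.29 and 5.32 FPKM in FG 93, 94, 95 and 96, and at 4.38, 5.11, 3.95 and 4.16 FPKM in SG 101, 103, 104 and 105. The groups did not overlap, but FG 96 and SG 103 were close. Mean Alg14 fell from 6.39 ± 1.32 to 4.40 ± 0.504 FPKM (SD, n = 4 each), a log2 fold change of -0.44 (SE 0.134) at a limma adjusted p of 0.0474. That call was lost in every fit that left out 1 library other than FG 96 (adjusted p up to 0.116, without SG 104) and after median-ratio scaling (adjusted p = 0.15). Alg13, at 1.09 ± 0.547 FPKM in FG and 1.07 ± 0.333 in SG (SD, n = 4 each), was not called. Its values rest on only 27 to 108 fragments per library.

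Alg2 (chr4:47469833-47474367) adds mannoses that follow the one placed by Alg1. It was at 7.02, 4.38, 6.04 and 6.83 FPKM in FG 93, 94, 95 and 96, and at 2.79, 3.78, 3.07 and 2.47 FPKM in SG 101, 103, 104 and 105. FG 94 was the lowest FG library and SG 103 the highest SG library, and they did not overlap. The mean fell from 6.07 ± 1.20 to 3.03 ± 0.559 FPKM (SD, n = 4 each), with a log2 fold change of -0.80 (SE 0.152, limma adjusted p = 0.0103), the largest among the ER genes.

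The 10 other assembly genes were not called. Alg1, the first mannosyltransferase, did not overlap between groups but missed the threshold (-0.30, limma adjusted p = 0.0755). Alg3, Alg9 and Alg12, mannosyltransferases of the ER lumen, had log2 fold changes of -0.43, -0.26 and -0.22. The glucosyltransferases Alg6, Alg8 and Alg10b, and Alg5, which makes their donor, ranged from -0.18 to -0.06. Alg11, which adds the last mannoses on the cytosolic side, had -0.14.

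All 6 oligosaccharyltransferase genes of the set lay below 0, between -0.31 and -0.13, and 0 passed the threshold (1, Stt3b, did not overlap between groups). Stt3a, the catalytic subunit that works alongside the translocon, was at 20.5 ± 2.67 FPKM in FG and 16.5 ± 2.93 in SG (SD, n = 4 each). Stt3b, the catalytic subunit for sites that were skipped, was at 19.7 ± 3.02 and 15.8 ± 1.39 FPKM. SG 101 had the highest SG values of Stt3a, Ddost, Rpn1, Rpn2 and Dad1, all 5 of the other subunits listed. Its Ddost value of 60.5 FPKM exceeded the other SG libraries, at 34.6 to 42.3, and also every FG library.

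Mogs (chr6:83115506-83118902) removes the outermost glucose of the transferred glycan. It was at 14.7, 12.8, 17.6 and 15.3 FPKM in FG 93, 94, 95 and 96, and at 11.1, 7.81, 8.26 and 10.1 FPKM in SG 101, 103, 104 and 105. All SG libraries were below all FG libraries. Mean Mogs fell from 15.1 ± 1.97 to 9.31 ± 1.54 FPKM (SD, n = 4 each), with a log2 fold change of -0.65 (SE 0.132, limma adjusted p = 0.0134), and the adjusted p was 0.0591 after median-ratio scaling. Ganab and Prkcsh, the subunits of the glucosidase that removes the remaining glucoses, had -0.13 and -0.20 and were not called.

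SG 101 decided much of the ER count. It held the highest SG value in 12 of the 22 ER genes and the lowest in 4. Without it the ER count was 8, and the whole set had 15 genes lower and 1 higher, beside 19.2% of all tested genes lower and 4.73% higher in that fit. The genes gained were Alg3 (-0.57), Stt3a (-0.42), Rpn1 (-0.33), Dad1 (-0.38) and Prkcsh (-0.31), with limma adjusted p-values from 0.0261 to 0.049, and Man2a1 (higher); Alg14 was lost. The Golgi count of 4 and the supply count of 3 were unchanged in that fit.

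Averaged over its tested genes, each arm was lower in every SG library than in every FG library. These means include the genes that fell, so they do not show a shift of every gene of an arm. In the Golgi 4 of the 11 tested genes had a fold change above 0. Their median of -0.10 lay above the -0.135 of all genes, whereas the ER (-0.222) and donor supply (-0.25) medians lay below it. The ER mean of log2(FPKM + 1) was 3.49 to 3.66 in FG and 3.24 to 3.41 in SG, the Golgi mean 3.97 to 4.14 in FG and 3.63 to 3.73 in SG. For donor supply the mean was 3.28 to 3.54 in FG and 2.90 to 3.06 in SG. The median of all tested genes also did not overlap, at 2.83 to 2.95 in FG and 2.67 to 2.78 in SG. The Golgi mean minus the ER mean was 0.40 to 0.48 in FG and 0.25 to 0.41 in SG, and these ranges overlapped through SG 103. Of the 40 genes, 13 had groups that did not overlap with SG lower and 0 with SG higher, beside 21.8% and 4.35% of all tested genes.

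**Figure D3:**
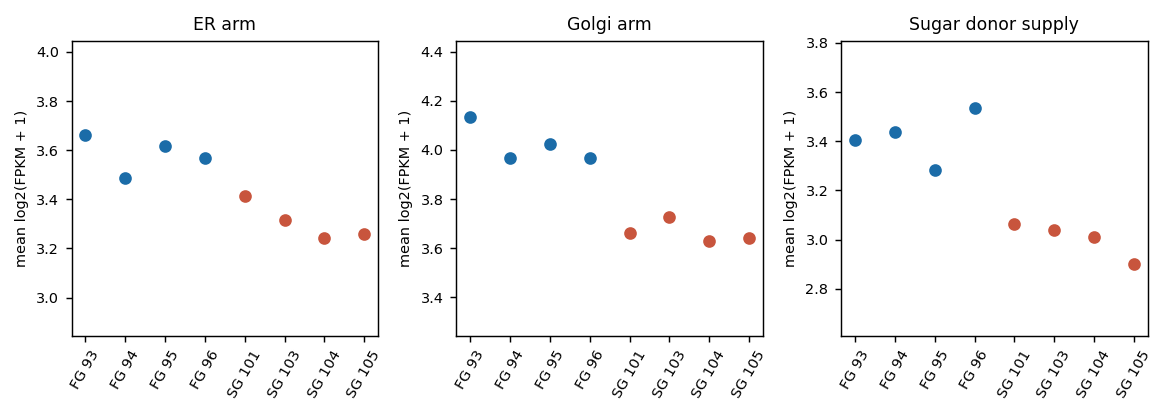
Mean log2(FPKM + 1) of the tested ER, Golgi and donor supply genes in each library, 1 point a library; the vertical axes do not start at 0 and span equal ranges. The 4 SG points lie below the 4 FG points in each panel, and SG 101 is the highest SG point in the ER panel. The means include the genes that fell.

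A second list, also written with earlier results of these data known, held 63 other genes of N-glycosylation, of which 54 could be tested. In SG 21 of these fell (38.9%, beside 15.6% of all tested genes) and 0 rose at limma's adjusted p under 0.05, beside 3.73% of all genes. At an unadjusted p under 0.05 also 0 were higher, again without a share of all tested genes at that level. The median was -0.368, beside -0.135 over all genes. After median-ratio scaling 5 of 54 were lower, beside 5.06% of all genes: Ugp2, Lman1, Nans, Uggt1 and Mpi. The count of 21 was 9 without FG 93, 13 without FG 95, 12 without SG 103, 11 without SG 104 and 13 without SG 105, and 9 of the 21 genes kept their call in all 8 fits that left out 1 library. Counts of single lists below are on the deposited scale and stand beside the same 15.6% of all tested genes called lower.

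The largest fall was that of Ugp2, which makes UDP-glucose, the source of the glucoses on the lipid-linked oligosaccharide and of glycogen. It was at 207 ± 27.0 FPKM in FG and 75.0 ± 12.3 in SG (SD, n = 4 each), a log2 fold change of -1.46 (SE 0.139, limma adjusted p = 0.000683), and the groups did not overlap. In the same list of 16 tested sugar nucleotide genes 6 fell, among them Nans, the sialic acid phosphate synthase, from 8.74 ± 1.09 to 4.78 ± 0.947 FPKM. Gne and Cmas, which act before and after Nans in sialic acid supply, had log2 fold changes of 0.03 and 0.09. Of the 6 nucleotide sugar transporters, which carry donors into the ER or Golgi, 0 were called.

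Among the smaller oligosaccharyltransferase subunits 5 of 6 fell. Tmem258 fell from 67.6 ± 12.3 to 41.8 ± 7.59 FPKM and Ostc from 33.9 ± 3.42 to 24.0 ± 3.06 FPKM (SD, n = 4 each), and after median-ratio scaling 0 of the 6 were called. Leaving out 1 library ended the call of Ostc in 4 of 8 fits and that of Tmem258 in 3. Of 11 genes of glycoprotein folding and disposal 5 fell. Lman1, a lectin that carries glycoproteins out of the ER, fell from 91.3 ± 3.79 to 59.5 ± 5.16 FPKM. Uggt1, which re-glucosylates misfolded glycoproteins, fell from 10.9 ± 1.35 to 7.15 ± 0.736 FPKM. Canx, the lectin chaperone calnexin, fell from 72.9 ± 4.90 to 56.3 ± 2.57 FPKM (log2 fold change -0.365, limma adjusted p = 0.0169), a call that was lost without FG 93 (adjusted p = 0.0521) and after median-ratio scaling (adjusted p = 0.11).

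Calr, the soluble partner of calnexin, was at 347 ± 27.4 FPKM in FG and 249 ± 94.3 in SG (SD, n = 4 each) and was not called (limma adjusted p = 0.10). Its value in SG 101 was 387 FPKM, above every FG library, while the other SG libraries were at 182 to 230 FPKM. Without SG 101 its log2 fold change was -0.78 (adjusted p = 0.00417).

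Of 9 tested dolichol genes 2 fell, Dpm3 (-0.40) and Dpm2 (-0.57), both subunits of dolichol-phosphate mannose synthase. Leaving out 1 library ended the call of Dpm2 in 7 of 8 fits, and neither gene was called after median-ratio scaling. Of 6 tested genes of other Golgi enzymes 3 fell, with St3gal4, a sialyltransferase, from 5.78 ± 0.580 to 3.86 ± 0.316 FPKM and Tmem165, a Golgi membrane protein needed for glycosylation, from 5.46 ± 0.303 to 3.37 ± 0.631 FPKM (SD, n = 4 each). After median-ratio scaling 0 of these 6 were called.

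**Figure D4:**
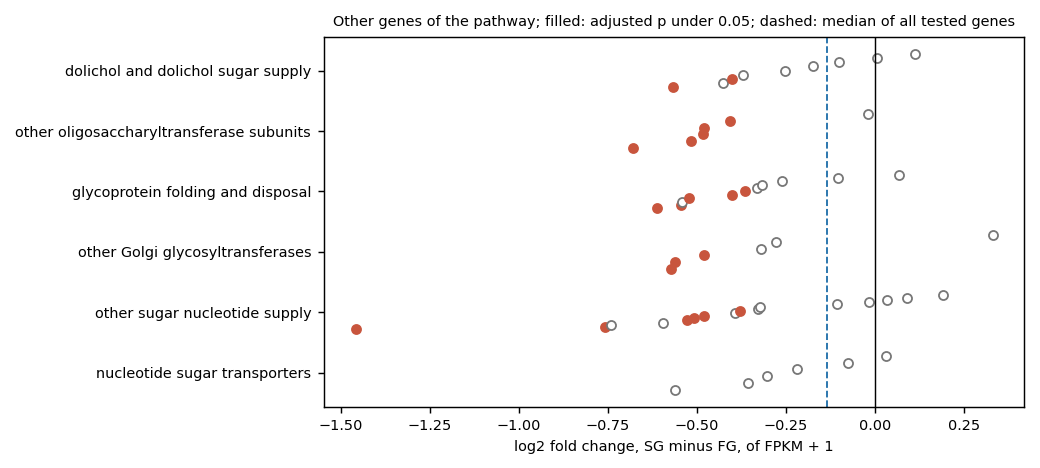
Log2 fold change (SG minus FG, of FPKM + 1) of the 54 tested genes of the second list, 1 point a gene, with the lists on the vertical axis; filled points have an adjusted p under 0.05, the solid line is 0 and the dashed line the median of all tested genes. Ugp2 lies alone at -1.46, and 5 of the 6 points among the other oligosaccharyltransferase subunits are filled.

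Marker genes of other liver cells were read beside these results, since in bulk tissue fewer cells of a type and less RNA per cell cannot be told apart. The 7 sinusoidal endothelial markers summed to 88.1 to 108 FPKM in FG and 68.4 to 80.3 in SG, without overlap. Clec4g alone gave 47.8 to 57.2 FPKM of these sums in FG and 27.9 to 40.3 in SG. Every other endothelial marker overlapped between groups. Of the 7, 1 fell (14.3%, beside 15.6% of all tested genes), Clec4g (-0.57, limma adjusted p = 0.0161). With median-ratio scaling its adjusted p was 0.0542, and without FG 93 it was 0.0514, so that neither fit called it. The 5 biliary markers summed to 21.9 to 27.7 FPKM in FG and 13.0 to 19.1 in SG, without overlap. Spp1 alone gave 15.91 to 22.03 FPKM of these sums in FG and 10.53 to 15.98 in SG. Taken singly, each of the 5 biliary markers, Spp1 included, overlapped between groups. Of the 2 tested, 1 fell, Spp1 (-0.59, limma adjusted p = 0.0226). Spp1 was not called with median-ratio scaling (adjusted p = 0.0744) or in 5 of the 8 fits without 1 library (adjusted p up to 0.0619). The summed macrophage markers (139 to 218 FPKM in FG, 126 to 256 in SG; 0 of 7 called), stellate markers (74.0 to 120 and 71.8 to 95.4; 0 of 6), B and plasma cell markers (1.17 to 4.76 and 1.58 to 4.98; 0 of 5 reached the filter) and T cell markers (0.36 to 1.46 and 0.69 to 0.87; 0 of 3 reached the filter) overlapped between groups. Of the 6 hepatocyte markers 2 rose (beside 3.73% of all tested genes), Cps1 (0.93, limma adjusted p = 0.0193) and Apoa1 (0.44, adjusted p = 0.0447). Both were also called after median-ratio scaling. Cps1 lost its call without SG 105 (adjusted p = 0.0517), and Apoa1 in each of the 8 fits without 1 library (adjusted p up to 0.102). No marker was at 0 in any library, and the part of the endothelial and biliary markers in the results above was not tested.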

How the data were processed

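Liver RNA was measured in 4 FG and 4 SG libraries. The deposited values are FPKM made by the authors for 21358 genes; the series text names HISAT2 and FPKM, and fastp, HTSeq and DESeq2 with builds GRCm38 and mm10 are named per the submitters' processing notes, without versions. Strand use in counting is not stated in the labels. Each of the 8 columns carries the name of 1 sample.

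From the FPKM steps whole fragments were recovered for 21357 of 21358 genes within 0.02 fragments. The total was fixed by 500 genes against GENCODE vM21 exon lengths, and sums of recovered fragments differed from it by at most 0.0355%. Counts served depth and an added alternative (limma voom).

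Values were fitted as log2(FPKM + 1) with limma 3.58.1 in R 4.3.3 (empirical Bayes with trend, 8 libraries, no covariates), for genes at 1 FPKM or more in at least 4 libraries, with Benjamini-Hochberg adjustment over all 9867 genes. Paralog pairs were compared by an exact two-sided permutation test. The limma fit was tested on simulated data. Alternatives were a pseudocount of 0.1, no filter or a mean of at least 5 FPKM, 3 scalings between libraries, no variance trend, library weights and leaving out each library. Fits without 1 library kept the gene filter of all 8.

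The members and lists were chosen with earlier results of these data known. All 43 genes may be named, with every library's value for called genes and, because its call depended on scaling, for Man2a1; from the second list up to 2 called genes per list with the smallest p, and Canx, Calr and Ugp2. Other genes named, among them Gne, Cmas and Mpi, were chosen after their values were seen. Of the listed symbols 2 were found through synonyms, and Trac is not analysed here. Promoters are from RefSeq for GRCm38.p6.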

Additional observations from a re-analysis of the deposited data

Results flagged for a closer look

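In 80 groups of 4 values (40 tested genes, FG and SG), 8 held a library that stood apart from the other 3; with this criterion chance marks about 1 in 20 groups, and the groups share libraries. SG 101 stood apart in 3 of them: above the others for Dpagt1 (5.11 FPKM, others 4.01 to 4.05) and Prkcsh (57.4 FPKM, others 42.1 to 43.5), and below them for Alg11 (3.78 FPKM, others 5.69 to 6.11). FG 95 stood below the other FG libraries for Alg11 (3.89 FPKM, others 6.63 to 6.96), Man1a (38.6 FPKM, others 46.7 to 48.4) and Man1a2 (4.51 FPKM, others 5.89 to 6.17). FG 94 stood below them for Alg6 (2.39 FPKM, others 2.64 to 2.67) and Gmppb (5.69 FPKM, others 7.75 to 8.08). Dpagt1 and Gmppb kept their calls without the library that stood apart.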

How the results depend on the processing

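No paired analysis was possible because the replicate numbers are not shared between FG and SG. The set's count of 11 genes lower ranged from 8 to 15, and the Golgi count was 4, under every alternative. The ER count of 4 was 2 with median-ratio and trimmed mean scaling, 1 with quantile normalization, 8 with library weights and 3 to 8 without 1 library. The count of higher genes was 1 with median-ratio and trimmed mean scaling and 0 to 1 without 1 library. Of all genes, 1133 were called without a filter, 1044 with median-ratio scaling, 1050 with trimmed mean scaling, 1078 with quantile normalization and 834 to 2363 without 1 library. The second list's 21 genes became 12 without a filter, 5 with median-ratio or trimmed mean scaling, 9 with quantile normalization, 32 with library weights and 9 to 29 without 1 library. Among called genes Alg14 and Mogs lost their calls under all 3 scalings, Gfpt1 under median-ratio scaling and Dpagt1 under quantile normalization (limma adjusted p = 0.0507). Alg14 also lost its call without a filter (limma adjusted p = 0.102). The added voom fit, chosen after seeing the data, gave 10 genes lower, without Alg14. Genes not called changed sign. With median-ratio, trimmed mean and quantile scaling in turn, log2 fold changes were 0.008, 0.009 and 0.011 for Alg11, 0.042, 0.042 and 0.048 for Alg6, 0.091, 0.092 and 0.093 for Alg10b, 0.064, 0.065 and 0.067 for Man1a2, 0.022, 0.022 and 0.019 for Mgat1, and 0.102, 0.103 and 0.063 for Pmm2. With median-ratio and trimmed mean scaling both, they were 0.045 for Rpn2, 0.038 for Ganab and 0.072 for Man1a. With library weights they were -0.022 for Mgat5 and -0.0 for St3gal3. Without 1 library, they ranged from -0.170 to 0.147 for Alg13, -0.189 to 0.047 for Alg10b, -0.170 to 0.053 for Man1a2, -0.060 to 0.067 for Mgat5, -0.006 to 0.283 for B4galt1, -0.072 to 0.205 for Gnpnat1 and -0.134 to 0.022 for Pmm2. The pair difference of Stt3a and Stt3b ranged from -0.179 to 0.082, and that of Man1a and Man1a2 from -0.095 to 0.034 (0.007 with median-ratio scaling). The cause was not tested. Depth limits Mgat3 (12 to 35 fragments per library), Mgat4a (33 to 86), Alg13 (27 to 108) and Fut8 (52 to 222).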
